A study of Mus musculus with 6 samples.

Results

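Of 689 genes that the authors' deposited table names, 106 make up the genes raised above the reference RNA in T cells without Irf4. They were chosen by their measured group means: a gene was taken where its heterozygous mean was above -1.5, its null mean was at least 1 and its null mean exceeded its heterozygous mean by at least 1. These values, like all expression values below, are log2 ratios of a sample to a common reference RNA, so a value of 1 is a level 2-fold that of the reference. The 3 limits held for 132 genes, of which 26 were left out by a fixed set of symbols and symbol beginnings. That set took out mostly genes of cytokines, chemokines, their receptors, surface molecules, cytotoxic granules, serpins, the BCL2 family and interferon-inducible proteins, and by its letters alone also Cdc14a, a cell cycle phosphatase gene. Names were dropped by the listed symbol, and 3 genes stayed in whose current symbol would have met the same rule. They are EG240921 (now Ifi206), AI447904 (now Ifi209) and Dscr1 (now Rcan1).

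The samples were 3 of Irf4 -/- (null) cells and 3 of Irf4 +/- (heterozygous) cells, both on a C57BL/6J background. Naive CD4+ T cells with high CD62L and no CD25 were taken from spleen and kept for 42 h on anti-CD3 with anti-CD28, IL-6 (20 ng/ml), IL-23 (20 ng/ml), human TGF-beta (1 ng/ml) and antibodies against IL-4 and interferon gamma, which drives cells toward the Th17 fate. Each sample, in Cy5, shared a 2-colour Agilent array with a Cy3-labelled pool of RNA from 11 mouse tissues, and no dye was swapped. The labels do not state the age of the mice, the deleted part of Irf4, or whether the 3 replicates of a group came from separate animals or cultures, and p-values therefore reflect only how far these samples scatter, which may be technical. The controls had 1 intact copy of Irf4, and no wild-type sample was analysed here.

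IRF4 is a transcription factor that T cells make in proportion to the strength of antigen receptor signalling. It binds DNA weakly alone and pairs with BATF and JUN proteins at composite elements that join an AP-1 site to a GAAA core, with ETS proteins at other composite elements, or with itself at interferon-stimulated response elements. Without it, naive CD4+ T cells fail to become Th17 cells, and it can activate or repress its targets.

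Irf4 had 0.62, 0.65 and 0.73 in null cells, against 3.02, 2.85 and 2.93 in heterozygous cells, and the groups did not overlap (limma Benjamini-Hochberg adjusted p = 0.00351). The third heterozygous sample, whose description gives its genotype ambiguously, had the value of 2.93. Array medians lay between -0.03 and 0.06, and the SD over probes was 1.61 to 1.83 on null arrays and 1.74 to 1.76 on heterozygous arrays. Null replicate 1 correlated with the other null arrays at r = 0.936 and 0.915 across probes, at 0.882 to 0.891 with those of heterozygous cells, while null replicate 3 and the heterozygous arrays had 0.93 to 0.937. None of 10 defining T cell markers had a named probe, so the labelled cell type could not be checked against them. Since the samples are bulk cells, fewer cells of a type and less RNA per cell cannot be told apart.

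The composite and interferon elements were searched on both strands of promoters from 250 bases before to 50 bases after each annotated start (RefSeq, GRCm38.p6). Of the 106 genes, 94 matched the RefSeq gene table and 78 had a promoter in it. The interferon-stimulated core, GAAA then any 2 bases then GAAA, was held by 8 of these 78 genes (10.3%), against 1079 of 27025 genes in the table (3.99%) and 6 of 282 named genes with a lower null mean (2.13%). The 8 windows of 100 bases that hold it are shown because IRF proteins are known to bind such letters. Binding was not measured, and any part of it in the expression values was not tested. Capitals mark matches to any motif searched, and each window reads along the gene's own strand.
Trim12c: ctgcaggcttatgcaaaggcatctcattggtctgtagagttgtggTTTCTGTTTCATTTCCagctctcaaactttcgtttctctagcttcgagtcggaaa
Trim12a: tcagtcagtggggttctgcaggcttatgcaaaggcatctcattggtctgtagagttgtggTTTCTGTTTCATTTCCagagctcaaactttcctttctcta
Ifi206: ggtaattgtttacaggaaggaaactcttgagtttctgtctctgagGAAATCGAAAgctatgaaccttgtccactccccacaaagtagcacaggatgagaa
Jaml: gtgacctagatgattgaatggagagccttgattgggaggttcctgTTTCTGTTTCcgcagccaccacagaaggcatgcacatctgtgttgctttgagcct
Rab19: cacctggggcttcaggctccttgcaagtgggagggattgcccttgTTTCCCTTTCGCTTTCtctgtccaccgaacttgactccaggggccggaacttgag
Exoc2: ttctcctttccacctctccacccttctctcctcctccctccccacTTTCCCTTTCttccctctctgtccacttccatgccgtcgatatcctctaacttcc
Prss2: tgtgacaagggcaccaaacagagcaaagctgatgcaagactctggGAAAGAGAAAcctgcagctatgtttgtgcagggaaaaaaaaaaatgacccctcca
Gm1966: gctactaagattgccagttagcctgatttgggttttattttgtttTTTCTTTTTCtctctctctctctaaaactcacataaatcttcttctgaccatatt

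The match began 29 bases before the annotated start of Trim12c (chr7:104353324-104353423, minus strand) and 10 bases after that of Trim12a (chr7:104315446-104315545, minus strand). Both are tripartite-motif genes of the Trim5 group, and their promoters share an identical run of 71 bases that spans the match, so they are not independent examples. In both, the run of capitals also holds, on the opposite strand, the ETS and IRF letters and the short AP-1 and IRF letters given next. The match began 40 bases before the start of Ifi206 (chr1:173491304-173491403, minus strand), 36 before that of Jaml (chr9:45079102-45079201, plus strand) and 10 before that of Rab19 (chr6:39381298-39381397, plus strand), where 2 matches overlap. It lay farther upstream, at 193, 163 and 108 bases, in Exoc2 (chr13:30974186-30974285, minus strand), Gm1966 (chr7:106644754-106644853, minus strand) and Prss2 (chr6:41521623-41521722, plus strand). The matches in Exoc2 and Gm1966 sit in runs of C and T.

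The composite ETS and IRF letters, GGAA then any 2 bases then GAAA, were in 7 of the 78 promoters (8.97%), against 3.16% of all genes and 2.48% of the named genes with a lower null mean. The composite AP-1 and IRF letters GAAATGA were in 10 (12.8%), against 6.26% of all genes and 6.03% of those lower genes. The spaced form, TTTC then any 4 bases then TGA, was in 5 (6.41%), against 5.27% and 5.32%. The AP-1 letters TGANTCA were in 7 (8.97%), against 8.97% of all genes and 13.5% of the lower genes. These shares describe letters in a short window and carry no test, and they do not show where any factor was bound.

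**Figure D1:**
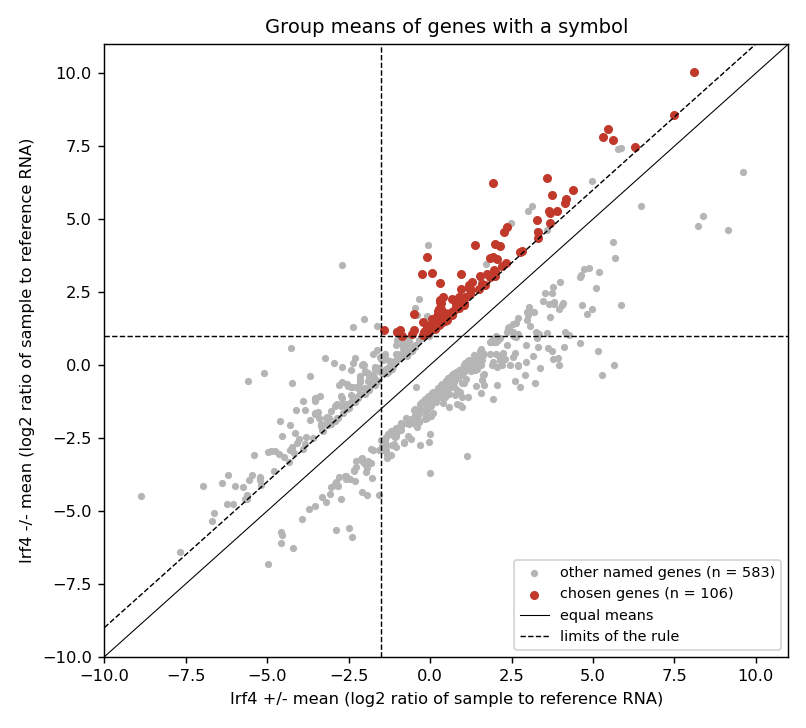
Each point is 1 of the 689 genes with a symbol, with its mean over 3 Irf4 +/- samples on the x axis and its mean over 3 Irf4 -/- samples on the y axis, both as log2 ratios to the reference RNA. The 106 chosen genes (red) lie above all 3 dashed limits, and grey points inside the limits are the 26 genes left out by name; the sparse band along the line of equal means reflects the authors' 2-fold selection, and the 1 gene inside it, Serpinb1b, averages listed probes of opposite sign.

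All 106 genes had been listed by the authors for a difference over 2-fold at an unadjusted p-value under 0.05, and the rule used the same 6 samples again. Their differences are therefore a description and carry no test. Over the 106 genes the median null mean was 2.32 and the median heterozygous mean 0.867. The median difference was 1.39, against -0.0502 over all 22622 genes and unnamed probes. The differences ran between 1.01 (2.01-fold, Hisppd1) and 4.3 (19.7-fold, Dppa1). They were at least 2 in 19 genes, between 1.5 and 2 in 25 and under 1.5 in 62.

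Most of the genes were already above the reference in heterozygous cells. The heterozygous mean was above 0 in 89 genes and at or below 0 in 17, and all 3 heterozygous values were above 0 in 77. The label of genes raised above the reference thus holds for the null mean, which the rule fixed, while only 17 crossed the level of the reference between the groups. Because the reference is a pool of tissues, a high ratio can also come from a low level in the pool, and ratios of different genes do not rank their levels.

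In all 106 genes the 3 null values lay above the 3 heterozygous values, where 12.2% of all rows did so. An adjusted limma p under 0.05 was reached by 71 of the 106, against 1.26% of all rows called higher. Since the rule and the authors' list used this contrast, nothing is read from either count. The count of 71 also fell with any 1 sample left out, as did the count over all rows. Leaving out null replicate 1 gave 42, replicate 2 gave 1 and replicate 3 gave 33. Leaving out heterozygous replicate 1 gave 11, replicate 2 gave 30 and replicate 3 gave 2. Over all rows, the 286 called higher became 100, 13 and 123 without null replicates 1, 2 and 3. They became 43, 95 and 22 without heterozygous replicates 1, 2 and 3, so the loss was not particular to the chosen genes.

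Just inside the limit on the difference lay Hisppd1 (1.01), Fxyd6 (1.02) and Inpp4b (1.03). Among genes that met the other 2 limits and were not dropped by name, none lay just outside it: the next in order were lower in null cells (Gng2, Sfn and 2010002N04Rik, with -1.03, -1.06 and -1.08). At the limit on the null mean, Mtap2, Syt12 and Chst11 had null means of 1.0, 1.03 and 1.07, while Zfp36l1, Nqo2 and 1700027L20Rik stayed out at 0.978, 0.941 and 0.898. At the limit on the heterozygous mean, Aldh1a3, 9630042H07Rik and Gpm6b had heterozygous means of -1.4, -1.0 and -0.919, while Mst1r, A630077B13Rik and Mmp13 stayed out at -1.63, -2.35 and -2.71.

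**Figure D2:**
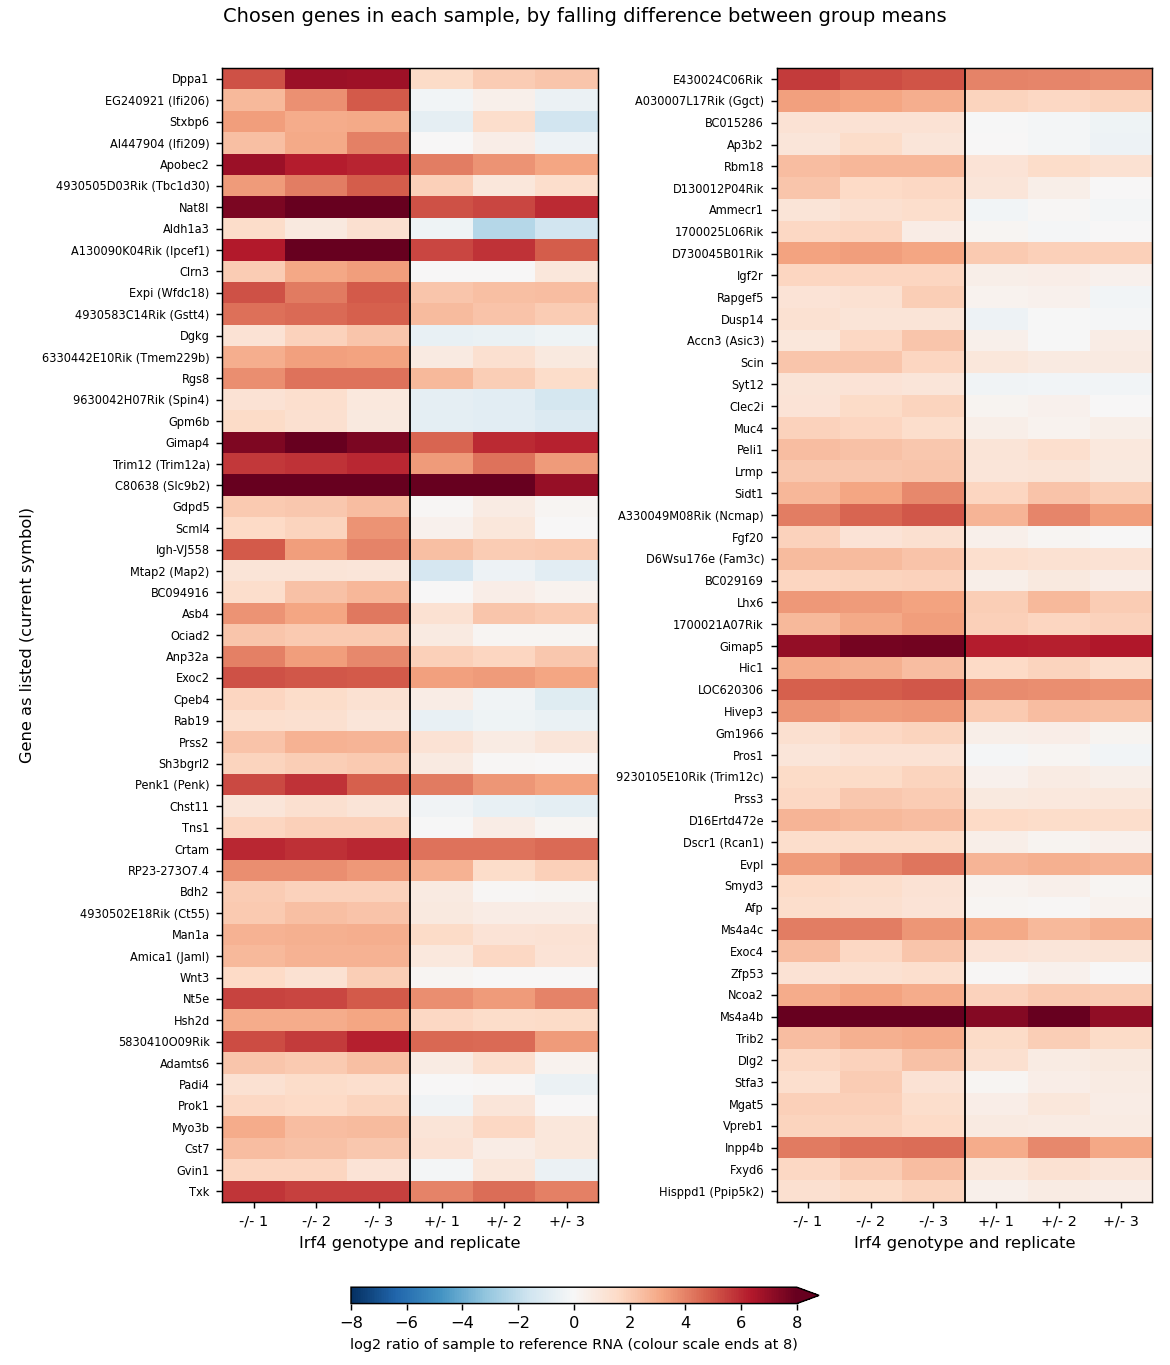
Each row is 1 of 105 of the chosen genes and each column 1 sample, with 3 Irf4 -/- samples left of the line and 3 Irf4 +/- samples right of it; colour gives the log2 ratio to the reference RNA, and genes run by falling difference down the left panel and then the right. The heterozygous mean was above 0 in 89 of all 106 genes.

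Immune gene families supplied 10 of the genes, with a median difference of 1.67. The p200 proteins are interferon-inducible DNA-binding proteins encoded side by side. EG240921 (Ifi206) had 2.57, 3.66 and 4.91 across the 3 null samples in replicate order, against -0.24, 0.42 and -0.46 in heterozygous cells, a difference of 3.8 (14-fold). AI447904 (Ifi209), with 2 coding genes between them, had 2.4, 3.05 and 4.04 in null cells, against 0.06, 0.53 and -0.41 in heterozygous cells, a difference of 3.11. In both genes null replicate 3 was highest and null replicate 1 lowest, and the heterozygous values scattered around the reference. For each gene, 1 probe read 0.0 after rounding in heterozygous replicate 1, which can be a failed measurement if it is exact.

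Each of these genes had 2 probes, which gave unequal differences. Those of AI447904 gave differences of 1.81 and 4.41, the widest gap between the differences of 1 gene's probes here. Those of EG240921 gave 4.4 and 3.21. Genes of this family are close copies, and whether a probe also read a neighbour was not tested. The other named p200 genes were also higher in null cells but stayed below the reference, with null means of -0.37 for Ifi203, -1.92 for Ifi204 and -0.06 for Mnda (now Ifi211), against heterozygous means of -3.69, -4.62 and -2.69.

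Trim12 (Trim12a) and 9230105E10Rik (Trim12c), whose human relative TRIM5 restricts retroviruses, were both higher. Trim12 had 5.67, 5.76 and 6.0 in null cells, against 3.42, 4.36 and 3.4 in heterozygous cells, a difference of 2.08. 9230105E10Rik had 1.56, 1.5 and 1.79 in null cells, against 0.32, 0.65 and 0.5 in heterozygous cells, a difference of 1.13. The null values of both were tight, while heterozygous replicate 2 was the highest control in both.

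Gvin1 and Gm1966 are adjacent genes of the very large interferon-inducible GTPases. Gvin1 had 1.71, 1.72 and 1.09 in null cells, against -0.18, 0.91 and -0.45 in heterozygous cells, so that null replicate 3 lay only 0.18 above heterozygous replicate 2. Gm1966 had 1.3, 1.66 and 1.77 in null cells, against 0.45, 0.56 and 0.25 in heterozygous cells, with a clear gap between the groups.

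Of 45 genes fixed as a list of interferon-stimulated genes, 10 had a named probe. None is among the 106, which the rule itself fixed: Epsti1 and Gbp3 met the 3 limits but were dropped by name, and the others missed a limit. By limma 8 of these 10 were higher in null cells, 1 was lower (Isgf3g, now Irf9) and 1 did not pass (Gbp3), with a median difference of 2.18 against -0.0502 over all rows. The named genes of this and the following lists all come from the authors' selection for change, so neither their counts nor their medians can be read against those of all rows.

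The Gimap genes encode GTPases of immunity-associated proteins, some of which lymphocytes need for survival. Gimap4 had 7.44, 8.11 and 7.54 in null cells, against 4.67, 6.0 and 6.13 in heterozygous cells, a difference of 2.1. Gimap5, with 3 coding genes between them, had 7.04, 7.66 and 7.75 in null cells, against 6.25, 6.24 and 6.41 in heterozygous cells, a difference of 1.18. Heterozygous replicate 1 was low for Gimap4 but level with the other controls for Gimap5.

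Igh-VJ558, a listed name for a family of immunoglobulin heavy chain variable segments, had 4.9, 3.37 and 3.97 in null cells, against 2.38, 2.02 and 2.08 in heterozygous cells over 3 probes. Vpreb1, a surrogate light chain gene of B cell precursors, had 1.77, 1.75 and 1.62 in null cells, against 0.74, 0.65 and 0.64 in heterozygous cells. The groups were separated for both, with far less spread for Vpreb1. Of 9 markers of B cells and plasma cells, 2 had a named probe. Sdc1 was higher, at -1.67 to -1.94 in null cells against -2.88 to -3.39 in heterozygous cells, and Cd24a was lower, at -2.25 to -2.46 in null cells against -0.36 to 0.2 in heterozygous cells. The part of B lineage cells in the values of Igh-VJ558 and Vpreb1 was not tested.

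**Figure D3:**
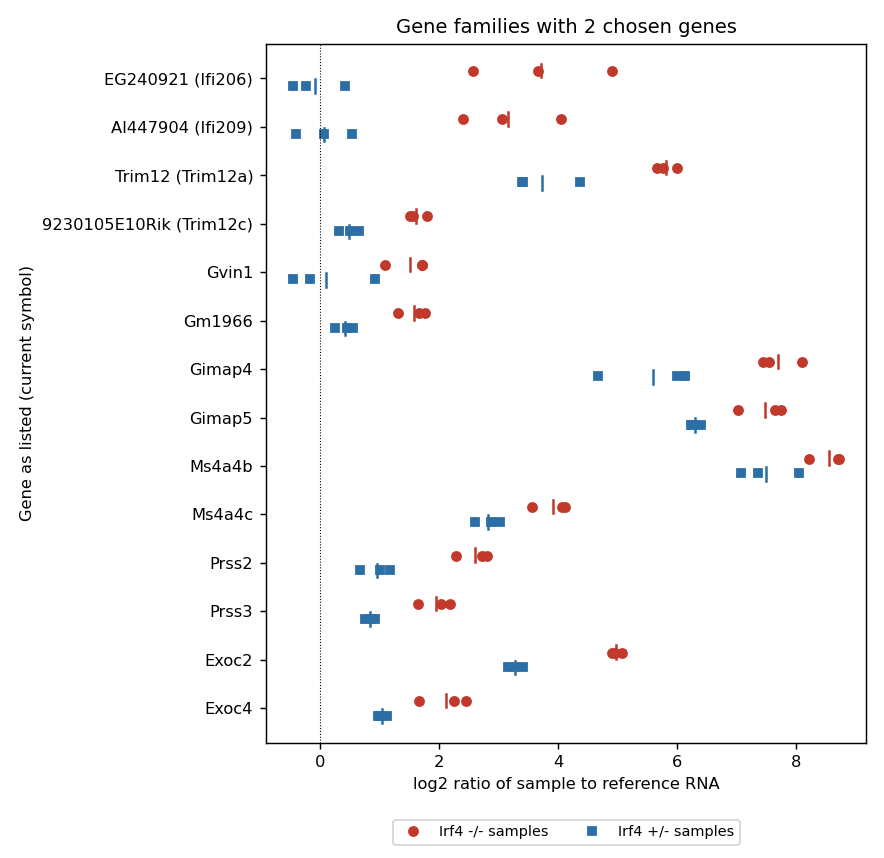
Points are single samples of 14 chosen genes that fall into 7 families of 2, with Irf4 -/- samples as red circles above Irf4 +/- samples as blue squares, and a short bar at each group mean; the x axis is the log2 ratio to the reference RNA and the dotted line marks equality with it. The groups do not overlap in any of the 14, which holds for all 106 chosen genes and for 12.2% of all rows. The rule used this contrast, so nothing is read from it. The gap is narrowest for Gvin1 and Ms4a4b, at 0.18 each.

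The chosen genes of the lymphocyte surface numbered 6, with a median difference of 1.39. Crtam, an immunoglobulin-family receptor of activated T and NK cells linked to cytotoxic CD4+ cells, had 6.05, 5.87 and 6.02 in null cells, against 4.32, 4.34 and 4.53 in heterozygous cells. Nt5e, which encodes CD73, the ectoenzyme that makes adenosine, had 5.39, 5.34 and 4.89 in null cells, against 3.69, 3.39 and 3.96 in heterozygous cells. Crtam was among the tightest of the well-separated genes, with an SD of 0.1 in null and 0.11 in heterozygous cells and a difference of 1.59 (3.0-fold). The difference of Nt5e was 1.53, at 1.2 and 1.86 for its 2 probes.

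Ms4a4b and Ms4a4c are adjacent genes for 4-span membrane proteins of T cells. Ms4a4b had 8.23, 8.72 and 8.73 in null cells, against 7.37, 8.05 and 7.08 in heterozygous cells. Ms4a4c had 4.07, 4.12 and 3.56 in null cells, against 3.02, 2.61 and 2.86 in heterozygous cells. Their differences were close to the limit of the rule, at 1.06 and 1.09, and neither was chosen in every setting that left out 1 sample. Ms4a6d, a relative in the same locus and the only 1 of 10 monocyte and granulocyte markers with a named probe, had -0.31 to 0.73 in null cells against -3.32 to -3.15 in heterozygous cells, and the part of myeloid cells in the Ms4a4 values was not tested.

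Amica1 (Jaml), a junctional adhesion molecule-like receptor, and Clec2i, a C-type lectin-like ligand of NK receptors, completed the group with differences of 1.53 and 1.25. Of 24 genes fixed as Th1 and cytotoxic, 6 had a named probe, of which Crtam is a chosen gene, while Eomes, Nkg7, Prf1 and Xcl1 met the 3 limits but were dropped by name. By limma, Crtam and Nkg7 passed as higher, Runx3 as lower, and Eomes, Prf1 and Xcl1 did not pass, with a median difference of 1.61 over the 6. Of 7 markers of CD8 T cells and NK cells, 3 had a named probe: Nkg7 was at 5.33 to 5.58 in null cells against 2.4 to 3.89 in heterozygous cells, Cd8a at 4.28 to 4.75 against 2.53 to 4.0, and Klre1 at -0.55 to 1.12 against 3.01 to 4.66. By limma Nkg7 was higher and Klre1 lower, while Cd8a did not pass (adjusted p = 0.143), and the part of such cells in the values of Crtam was not tested.

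Signalling genes numbered 12, with a median difference of 1.27. Txk, a Tec-family kinase of the T cell receptor pathway, had 5.7, 5.47 and 5.48 in null cells, against 3.98, 4.46 and 4.01 in heterozygous cells. A130090K04Rik (Ipcef1), which encodes a partner of cytohesin exchange factors, had 6.35, 8.39 and 8.72 in null cells, against 5.33, 5.76 and 4.85 in heterozygous cells. The difference of Txk, 1.4, was smaller but even, whereas that of Ipcef1, 2.5, came mostly with null replicates 2 and 3: null replicate 1 lay 0.59 above the highest control.

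Dscr1 (Rcan1), a feedback inhibitor of calcineurin, had 1.4, 1.49 and 1.44 in null cells, against 0.49, 0.22 and 0.31 in heterozygous cells, a difference of 1.1. It was 1 of 4 named genes among 28 fixed as T cell receptor feedback and immediate early genes, of which limma called 3 higher (Dscr1, Dusp6 and Spry1, the last dropped by name) and 1 lower (Tnfaip3), with a median difference of 1.19. Dgkg, which encodes diacylglycerol kinase gamma, had a heterozygous mean below the reference (-0.487) and a null mean of 1.74. The other signalling genes were the G protein regulator Rgs8 (2.14), the adaptor Hsh2d (1.5), the Rap exchange factor Rapgef5 (1.28), the phosphatase Dusp14 (1.27), the ubiquitin ligase Peli1 (1.25), the pseudokinase Trib2 (1.06), the phosphoinositide phosphatase Inpp4b (1.03) and the inositol pyrophosphate kinase Hisppd1 (now Ppip5k2, 1.01), each with its difference.

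Secreted factors, proteases and their inhibitors numbered 14, with a median difference of 1.34. Penk1 (Penk), the precursor of enkephalin peptides, had 5.26, 5.81 and 4.75 in null cells, against 4.15, 3.56 and 3.2 in heterozygous cells. Expi (Wfdc18), which encodes a WAP-domain protein, had 5.1, 4.14 and 4.91 in null cells, against 2.24, 2.41 and 2.45 in heterozygous cells. The controls of Expi lay within 0.21 of each other, while its null values spread over 0.97. Penk1 and Nt5e are the 2 chosen genes of 8 named among 26 fixed as regulatory T cell genes, where Nrp1 and Tnfrsf9 met the 3 limits but were dropped by name. Of the 8, limma called 3 higher (Areg, Nrp1 and Nt5e) and 2 lower (Ikzf2, listed as A730095J18Rik, and Ebi3), with a median difference of 1.58.

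Prss2 and Prss3 encode trypsinogens, whose genes lie inside the T cell receptor beta locus in mice. Prss2 had 2.29, 2.81 and 2.72 in null cells, against 1.17, 0.67 and 1.0 in heterozygous cells, a difference of 1.66. Prss3, with 3 coding genes between them, had 1.64, 2.18 and 2.04 in null cells, against 0.76, 0.85 and 0.91 in heterozygous cells, a difference of 1.11. Null replicate 1 was the lowest null sample for both, and whether a probe of 1 trypsinogen also read the other was not tested.

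Growth factor genes in the group were Wnt3 (1.53), Prok1 (1.44) and Fgf20 (1.22), all with heterozygous means between 0.06 and 0.23. Each had an exact 0 in heterozygous replicate 3, which can be a failed measurement, so these means need not give a level near the reference. Protease genes and inhibitors were Adamts6 (1.46), Cst7, which encodes cystatin F of cytotoxic granules (1.42), and Stfa3, a stefin gene (1.05). The remainder were the mucin gene Muc4 (1.25), D6Wsu176e (now Fam3c, 1.2), Pros1, which encodes the anticoagulant protein S (1.15), and the fetal serum protein gene Afp (1.09).

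Genes of transcription, chromatin and RNA numbered 12, with a median difference of 1.26. Apobec2, a member of the cytidine deaminase family known from muscle, had 6.87, 6.25 and 6.09 in null cells, against 4.06, 3.57 and 3.14 in heterozygous cells, a difference of 2.82 (7.04-fold). Its 2 groups were 2.03 apart at their nearest values, the widest gap in this group of genes. The polycomb-type gene Scml4 had 1.62, 1.8 and 3.58 in null cells, against 0.31, 0.91 and 0.0 in heterozygous cells, so that null replicate 3 stood apart. The rest were 9630042H07Rik (now Spin4, 2.12), Anp32a (1.77), the RNA-binding gene Cpeb4 (1.69), Rbm18 (1.33), the homeobox gene Lhx6 (1.18), the repressor Hic1 (1.17), the zinc finger gene Hivep3 (1.16), the methyltransferase gene Smyd3 (1.09), Zfp53 (1.08) and the nuclear receptor coactivator Ncoa2 (1.07).

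Membrane traffic, the cytoskeleton and junctions were represented by 15 genes, with a median difference of 1.33. Exoc2 and Exoc4 encode subunits of the exocyst, the complex that tethers secretory vesicles to the plasma membrane. Exoc2 had 5.08, 4.96 and 4.9 in null cells, against 3.27, 3.42 and 3.15 in heterozygous cells, a difference of 1.7 (3.25-fold) with SDs of 0.09 and 0.13. Exoc4 had 2.45, 1.65 and 2.24 in null cells, against 1.12, 0.97 and 1.01 in heterozygous cells, a difference of 1.08. Exoc2 is the coding gene next to Irf4 in the RefSeq order. The targeted chromosome thus carries it beside the altered locus, and any part of that in its value cannot be told apart from the loss of IRF4 in this design.

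Stxbp6, which encodes a syntaxin-binding protein, had 3.36, 2.96 and 3.02 in null cells, against -0.69, 1.44 and -1.52 in heterozygous cells. Its difference of 3.37 was the third largest, but the controls spread over 2.96, the widest heterozygous range of the 106. 4930505D03Rik (Tbc1d30), a Rab GTPase-activating gene, had 3.4, 4.12 and 4.83 in null cells, against 1.88, 0.91 and 1.38 in heterozygous cells, a difference of 2.72. Rab19 (1.69) and Mtap2 (now Map2, 1.87) crossed the reference, with heterozygous means of -0.494 and -0.866 and null means of 1.19 and 1.0.

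Other genes of this kind were the tensin gene Tns1 (1.61), the myosin gene Myo3b (1.44), the adaptor subunit gene Ap3b2 (1.33), the actin-severing gene Scin (1.26), Syt12 (1.26), Lrmp (1.24), the envoplakin gene Evpl (1.1) and the scaffold gene Dlg2 (1.05). Syt12 and Lrmp were tight in both groups, with SDs of 0.09 and 0.04 in null cells and 0.04 and 0.11 in heterozygous cells.

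Metabolism, glycans and transport supplied 15 genes, with a median difference of 1.56. Nat8l, which encodes the enzyme that makes N-acetylaspartate, had 7.55, 8.22 and 8.53 in null cells, against 5.09, 5.33 and 5.95 in heterozygous cells, a difference of 2.64 (6.24-fold). C80638 (Slc9b2), a sodium-proton exchanger gene, had 10.3, 9.82 and 9.95 in null cells, against 8.37, 8.97 and 6.95 in heterozygous cells. Its neighbour Bdh2 is a hydroxybutyrate dehydrogenase gene, with no coding gene between. Bdh2 had 2.02, 1.87 and 1.83 in null cells, against 0.75, 0.07 and 0.19 in heterozygous cells. These values average 2 probes of unlike level. In null cells 1 probe had 4.34, 4.3 and 4.17, while the other had -0.3, -0.57 and -0.51, below the reference. Their differences between the groups were 1.64 and 1.5. For Slc9b2 the third control was lowest and for Bdh2 the first was highest, so the controls of this neighbouring pair did not move together.

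Aldh1a3, which encodes an enzyme that makes retinoic acid, had 1.49, 0.77 and 1.3 in null cells, against -0.37, -2.28 and -1.56 in heterozygous cells. It had the lowest heterozygous mean of the 106, at -1.4, and it missed the rule without heterozygous replicate 1. 4930583C14Rik (Gstt4), a glutathione transferase gene, had 4.38, 4.51 and 4.8 in null cells, against 2.5, 2.31 and 2.01 in heterozygous cells. A030007L17Rik (Ggct), whose enzyme acts on gamma-glutamyl peptides in glutathione breakdown, differed by 1.36, and Gstt3, a named relative of Gstt4 outside the rule, had a null mean of -0.75 against a heterozygous mean of -2.39.

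Enzymes of glycans were Chst11, a chondroitin sulfotransferase gene (1.63), Man1a, a mannosidase gene of N-glycan trimming (1.56), and Mgat5, which branches N-glycans (1.05). The others were the glycerophosphodiesterase gene Gdpd5 (1.93), Padi4, which encodes a peptidylarginine deiminase (1.45), the mannose 6-phosphate receptor gene Igf2r (1.28), the acid-sensing channel gene Accn3 (now Asic3, 1.27), Sidt1 (1.24) and Fxyd6, a regulator of the sodium pump (1.02). Igf2r had the second tightest null values of the 106, with an SD of 0.02.

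**Figure D4:**
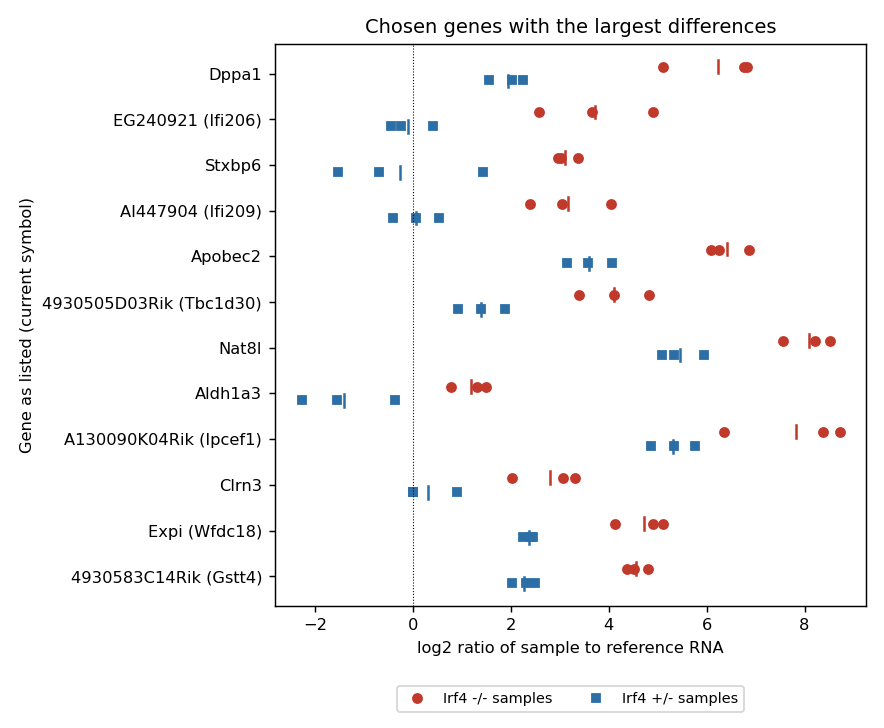
Points are single samples of the 12 chosen genes with the largest differences, with Irf4 -/- samples as red circles above Irf4 +/- samples as blue squares and a short bar at each group mean; the x axis is the log2 ratio to the reference RNA. Dppa1 leads with null values of 5.12 to 6.83 against 1.55 to 2.24, and Stxbp6 and Aldh1a3 show wide heterozygous spread.

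Genes with another or no assigned role numbered 22, with a median difference of 1.43. Dppa1, a gene named for expression in pluripotent cells, had 5.12, 6.83 and 6.77 in null cells, against 1.55, 2.01 and 2.24 in heterozygous cells, a difference of 4.3 with means of 6.24 ± 0.97 and 1.94 ± 0.35 (SD, n = 3 each). It lies among the genes of the TIM receptors: Timd2 is next to it and differed by -3.25, and Havcr2, with 2 coding genes between, differed by 1.73, so the values of the neighbours on either side had opposite signs. Clrn3, a clarin gene, had 2.01, 3.07 and 3.31 in null cells, against 0.0, 0.0 and 0.9 in heterozygous cells, where an exact 0 can be a failed measurement. 5830410O09Rik had 5.19, 5.59 and 6.23 in null cells, against 4.58, 4.55 and 3.43 in heterozygous cells.

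The other genes with a current name were 6330442E10Rik (now Tmem229b, 2.18), the proteolipid gene Gpm6b (2.12), Asb4 (1.82), Ociad2 (1.79), Sh3bgrl2 (1.65), 4930502E18Rik (now Ct55, 1.57), Ammecr1 (1.32), A330049M08Rik (now Ncmap, 1.23) and D16Ertd472e (1.11). Besides Igh-VJ558 and 5830410O09Rik, those that matched no RefSeq entry were BC094916 (1.86), RP23-273O7.4 (1.58), E430024C06Rik (1.38), BC015286 (1.33), D130012P04Rik (1.33), 1700025L06Rik (1.3), D730045B01Rik (1.29), BC029169 (1.18), 1700021A07Rik (1.18) and LOC620306 (1.16). Among them BC015286 had null values of 1.15, 1.16 and 1.18, the tightest of all 106.

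Spread between replicates was close to that of all rows in null cells and somewhat above it in heterozygous cells. The median SD of the 106 genes was 0.248 in null and 0.234 in heterozygous cells, against 0.259 and 0.189 over all rows. The authors' selection by p-value also acts on spread, so nothing is read from this comparison. The SD was larger in null cells in 52 of the 106 genes. Both SDs were under 0.2 in 26 genes, among them Crtam, Exoc2, Hsh2d and Hivep3. The range among null samples exceeded 1 in 16 genes, and that among heterozygous samples in 12.

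The 16 genes with a wide null range had a common order. Null replicate 1 was the lowest null sample in 12 of them and null replicate 3 the highest in 12, and their median was 2.62 in null replicate 1, 3.17 in replicate 2 and 4.01 in replicate 3. Over all 106 genes null replicate 1 was lowest in 53, against 44.2% of all rows, and null replicate 3 was highest in 44 (41.5%), against 41.5% of all rows. The order in the wide genes moved with the spread of the arrays, whose SD was 1.61, 1.68 and 1.83, and the part of that spread in it was not tested. Scaling the arrays to 1 SD left 106 of the 106 genes inside the rule. Dppa1, Igh-VJ558, Penk1, Asb4 and 1700025L06Rik were wide genes that departed from that order.

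**Figure D5:**
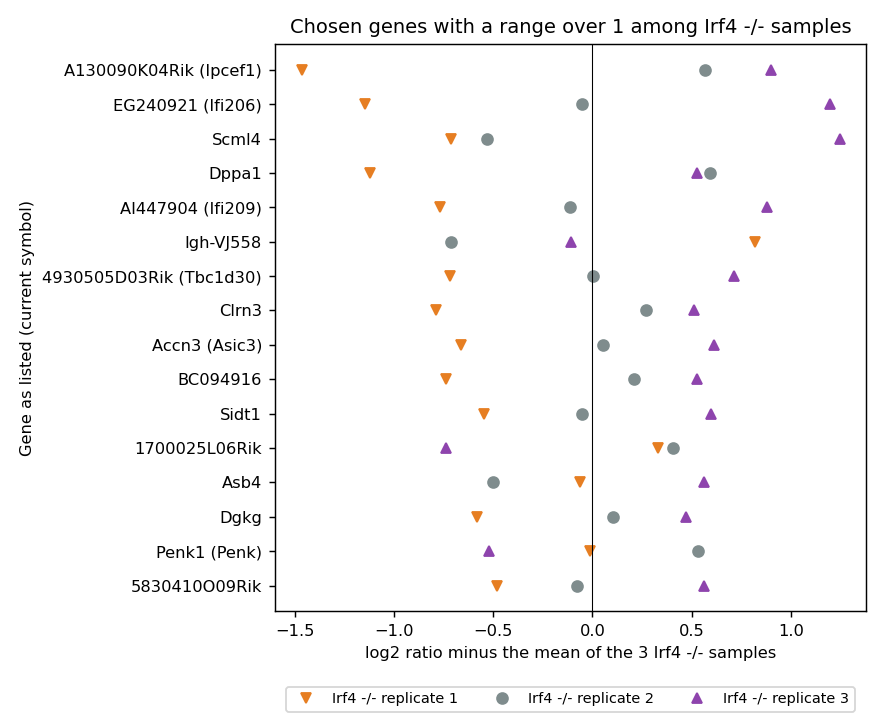
Points give, for the 16 chosen genes with a range over 1 among the Irf4 -/- samples, each null replicate's log2 ratio minus the mean of the 3; genes run by falling range. Replicate 1 (downward triangles) lies lowest and replicate 3 (upward triangles) highest in 12 genes each.

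Of the genes with over 1 listed probe, 25 in number, every probe differed by at least 1 in all 25, as the authors' selection required of a listed probe. Within a gene, the lowest and highest of the probes' null minus heterozygous differences lay a median of 0.32 and at most 2.6 apart. After probes were averaged, values of exactly 0 occurred in 8 genes, 9 values in heterozygous samples and 0 in null samples, whose mean the rule held at 1 or more. Before averaging, a probe of EG240921, of AI447904 and of Ammecr1 also read 0.0, after rounding, in a heterozygous sample.

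Position in the genome was shared by some of the genes. Among 94 genes placed in the RefSeq order, 12 pairs lay with fewer than 10 coding genes between them. No such count over all genes is given beside it, so it is a description only. The 12 pairs included the p200, Trim12, Gvin, Gimap, Ms4a4 and trypsinogen pairs. Lhx6 and Rbm18 were adjacent with differences of 1.18 and 1.33, without being relatives, as were Bdh2 and Slc9b2.

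Membership was also counted with single samples left out. The samples left in had also chosen the genes, so most genes were bound to stay and nothing is read from the count. When the rule was applied to 5 samples, 83 of the 106 genes were chosen in all 6 cases and 23 missed at least 1. The 23 included Aldh1a3, Exoc4, Ms4a4b, Ms4a4c, Inpp4b, Trib2, Fgf20 and Sidt1.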

How the data were processed

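The authors deposited normalized ratios, taken here as log2 of sample (Cy5) over reference (Cy3), for 22749 probes on 6 arrays. The submitters' processing notes name Agilent Feature Extraction (10.7) and Partek, and the normalization method is not stated in the labels or headers. Per the file headers, the authors' deposited table holds p-values of a 1-way ANOVA (Partek Genomic Suite 6.6) and a signed fold change, used here as a score, for 828 probes. The difference between group means equalled log2 of the deposited fold within 1.03e-05, which settles the base and the direction between groups; that the ratio is sample over pool was taken from the dyes.

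Listed probes of a symbol were averaged, other probes stayed unnamed, and the 22622 rows were fitted with limma 3.58.1 in R 4.3.3 (lmFit, eBayes, no covariates), with Benjamini-Hochberg adjustment over all rows and a threshold of 0.05; this step was tested on simulated data. Intensities were not used, so no filter on dim probes was made, and the number of arrays limits precision. Symbols were updated through RefSeq (GRCm38.p6). Of the chosen genes 105 are named and 1 is not reported here, though it stays in the counts; values in every sample are given for the 12 with the highest null mean, the 12 with the largest difference and others that share a list, family or locus, and a few more were chosen after their values were seen. Role groups were assigned after the members were known. The members and lists were chosen with earlier results of these data known.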

Additional observations from a re-analysis of the deposited data

How the results depend on the processing

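The 106 chosen genes numbered 44 with a lower limit of 1.5 on the difference. The other settings of the rule gave 84 to 120, and leaving out 1 sample gave 96 to 104. The 71 of them past the limma threshold became 43 under the methods' t-test, while all rows past it rose from 551 to 790. The cause of these opposite shifts was not tested. Fits on 5 samples gave 1 to 42, with fewer samples by construction. All rows past the threshold, 551, became 30 to 239 with 1 sample left out. With the replicate number as a block (replicate block), 13 rows and 1 chosen gene passed, and Irf4 kept a log2 difference of -2.26 with an adjusted p of 0.0534. Whether the numbers pair the samples is not known: deviations from the group means of same-numbered samples correlated at 0.097, -0.012 and -0.037, which cannot settle it. The Irf4 adjusted p lay between 0.00217 and 0.0334 elsewhere. The remaining settings kept the 71 at 67 to 72 and the 551 at 450 to 725. Dropping names by current symbol (103 genes) and scaling the arrays (107) were chosen after the data were seen.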
